A study of Mus musculus with 8 samples.

Results

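Small leucine-rich proteoglycans are secreted matrix proteins built from leucine-rich repeats, most of which carry chondroitin, dermatan or keratan sulphate chains. Their members here are Dcn (decorin), Bgn (biglycan) and Aspn (asporin) of class I, Lum (lumican), Fmod (fibromodulin), Prelp (prolargin), Kera (keratocan) and Omd (osteomodulin) of class II, and Epyc (epiphycan) and Ogn (osteoglycin) of class III. They were taken as all probe sets whose gene symbol in the deposited annotation is that of a member and of no other gene, Epyc standing there under its older symbol Dspg3. This gave 20 of the array's 22690 probe sets, for 10 of the 13277 gene symbols that a probe set names singly.

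The treated cells were C3H10T1/2 cells, a multipotent mouse mesenchymal line from embryonic tissue, that received 3.3 nM BMP7, a secreted bone morphogenetic protein, for 3 days after reaching confluence. They are set against the same line given vehicle for the same time. Each of the 4 BMP7 and 4 vehicle samples of total RNA had its own Affymetrix Mouse Genome 430A array. Everything below comes from 1 cell line, and the labels do not say whether the samples of a group were separate cultures, so that p-values measure the spread between samples, which may be technical. Arrays are called by group and by the number in the labels.

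Decorin, biglycan, lumican and fibromodulin bind collagen fibrils and are known for setting fibril spacing and diameter. Decorin and biglycan also bind growth factors, transforming growth factor beta among them, and both are abundant products of fibroblasts. Epiphycan is known from growth plate cartilage, keratocan from the cornea and osteomodulin from bone.

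Values are MAS5 signals, an array's brightness for a transcript in arbitrary linear units on the scaling of the authors. Signals of different probe sets are not comparable with each other as amounts of transcript. Each signal, and each sum or difference of signals below, is therefore compared across arrays only. A sum is weighted towards its brightest probe sets. In RNA of whole cultures, fewer cells of a type and less RNA per cell cannot be told apart.

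Of the labelled line's 10 fibroblast and mesenchymal markers, 9 lay above the low-signal filter, among them Col1a1, Vim and Thy1, and Fap lay below it. The summed signal of those 10 markers ranged from 223522 to 274207 on BMP7 arrays and from 282678 to 407880 on vehicle arrays, with 2 of the 9 lower and 1 higher by the test described below. None of the 5 epithelial markers and 1 of the 5 endothelial markers lay above the filter, and none of either list passed that test. Nor did any marker of osteoblasts (3 above the filter of 5 genes with a probe set), tendon (1 of 3), adipocytes (2 of 5), smooth muscle (2 of 5) or macrophages (3 of 5). The osteoblast sum ranged from 5332 to 7485 on BMP7 arrays and from 8777 to 13072 on vehicle arrays. Runx2 was its largest term on average (5075 in BMP7 cells, 7820 in vehicle cells). Phex, below the filter, averaged 36.6 in BMP7 cells and 1378 in vehicle cells, and Sp7 went the other way (545 and 444). Of the 5 chondrocyte markers above the filter Col2a1, Sox9 and Col9a1 rose, while Acan (705 on average in BMP7 cells, 298 in vehicle cells) and Col11a2 (681 and 384) did not pass. The summed signal of all 10 chondrocyte markers ranged from 37228 to 63949 on BMP7 arrays and from 8289 to 18056 on vehicle arrays. Col2a1 was its largest term on average. Matn1, Matn3, Hapln1, Col10a1 and Comp lay below the filter, which acts on the mean over all arrays. Of these, Col10a1 averaged 1059 in BMP7 cells and 40.5 in vehicle cells, Hapln1 469 and 82.0, and Matn3 310 and 229. Matn1 (81.55 and 115) and Comp (201 and 278) had lower means in BMP7 cells. As a sign of RNA quality, the signal at the 3′ end of the Actb control transcript was divided by that at its 5′ end: vehicle 3 had 6.55, and the remaining 7 arrays had 1.17 to 1.4. Bacterial transcripts spiked into each hybridisation had a mean log2 signal of 11.72 to 11.96 on BMP7 arrays, against 12.37, 12.60, 13.25 and 11.92 on vehicle 1, 2, 3 and 4. This signal was thus higher on vehicle 1, 2 and 3 than on every BMP7 array. A fit with it as a covariate cannot fully separate its part from that of the treatment, and a call can be lost through that overlap alone. The part of these measures in the results below was not tested, beyond the fits with and without vehicle 3 and with a covariate that are given there.

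Decorin and lumican fell under BMP7, 1 of the 2 prolargin probe sets rose, and no probe set of any other member passed the test. Of the 20 member probe sets 14, from 8 genes, reached the 40th percentile of mean log2(signal + 16), which corresponds to a signal of 325, and were tested with limma. At an adjusted p under 0.05, 2 of these 14 were lower and 1 was higher, against 1.5% lower and 1.63% higher (3.13% in all) of the 13576 probe sets tested. The median log2 fold change was -0.14 over the 14 member probe sets and 0.04 over all tested probe sets. Groups did not overlap, with BMP7 lower, for 6 of the 14, against a background of 7.1%, and 3 of those 6 belong to Bgn. With BMP7 higher, groups did not overlap for 1 of the 14, against a background of 8.3%. The members were picked with earlier results of these data known, so these counts describe them and no more.

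**Figure D1:**
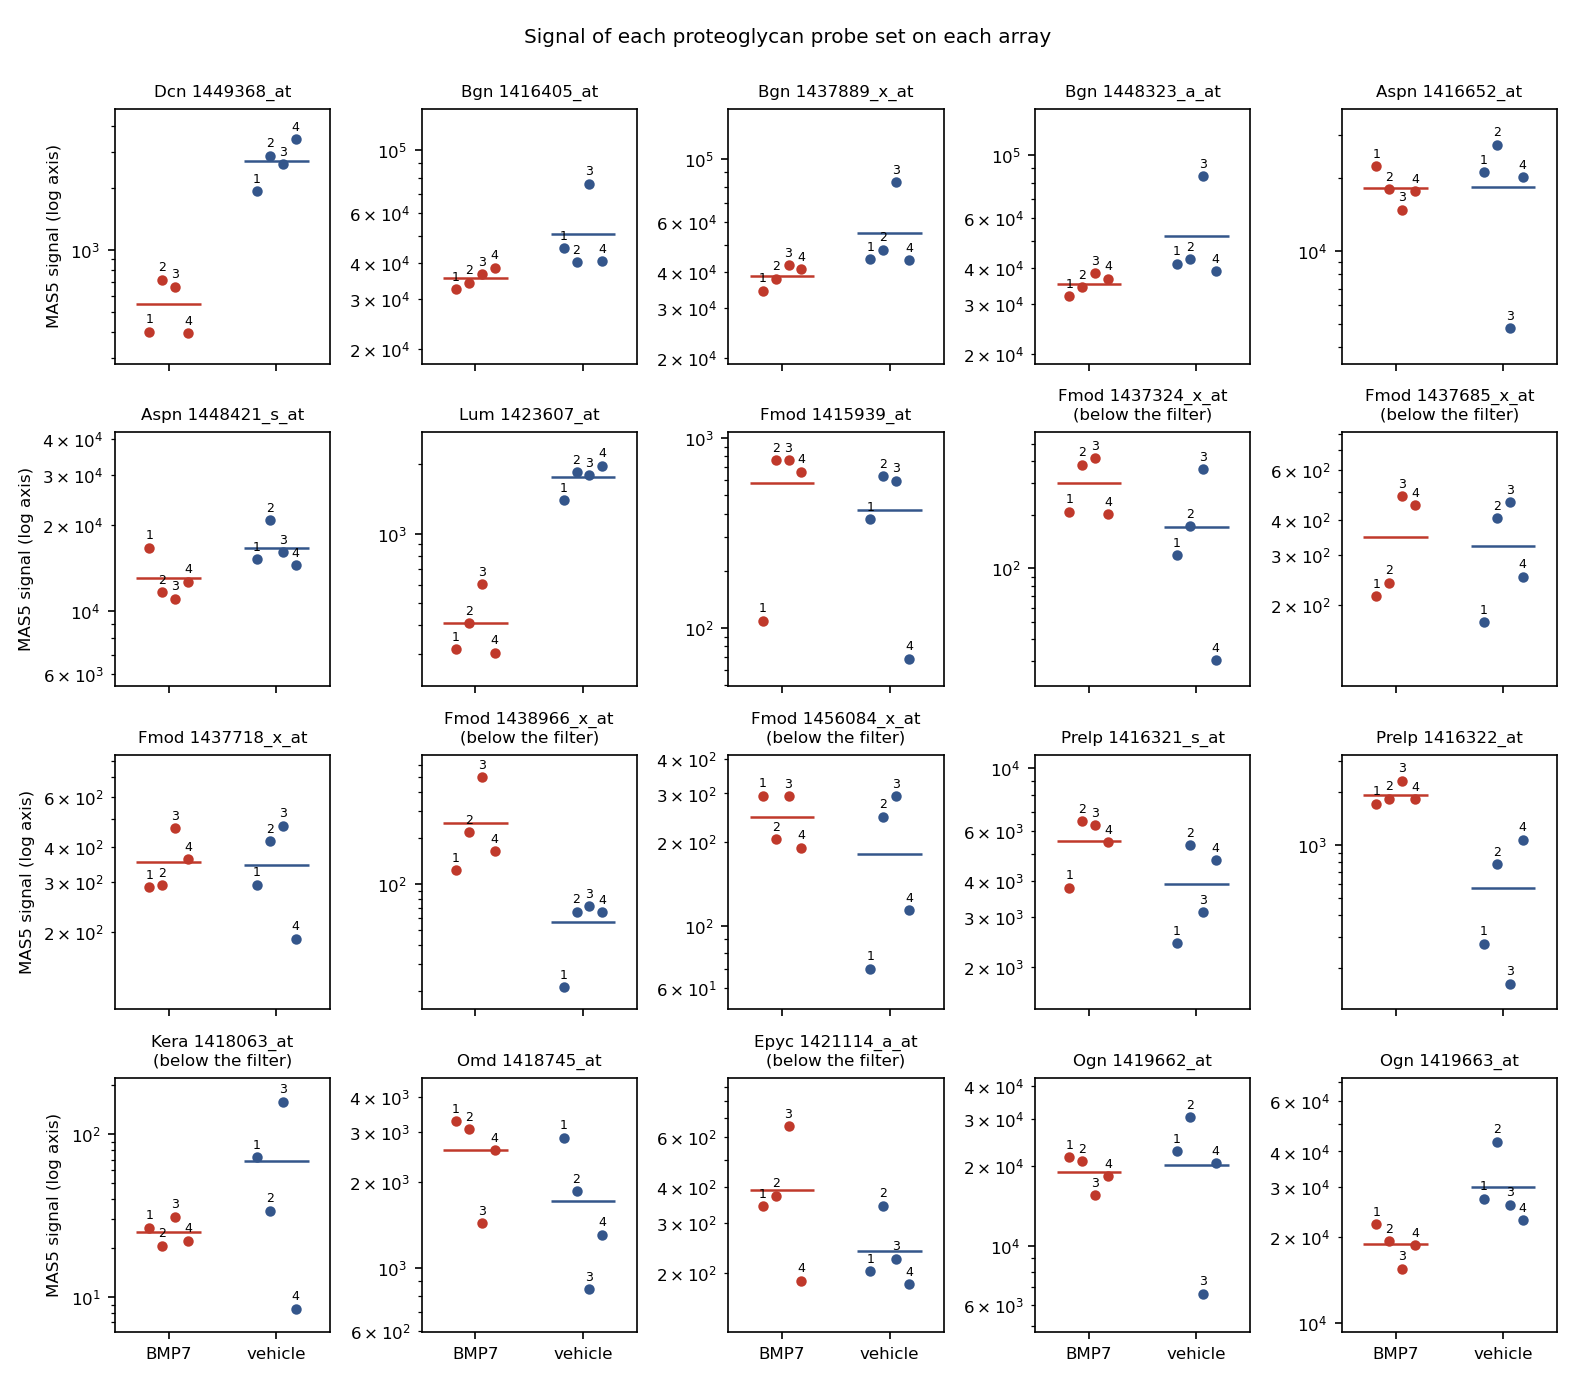
MAS5 signal (log axis, arbitrary units) of the 20 probe sets on each array, BMP7 at left and vehicle at right, with points numbered by the labels' replicate and lines at the group means (n = 4 each). The 4 BMP7 points lie below all vehicle points for Dcn, Lum, the 3 Bgn probe sets and Ogn 1419663_at, and above them for Prelp 1416322_at and, below the filter, Fmod 1438966_x_at.

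**Figure D2:**
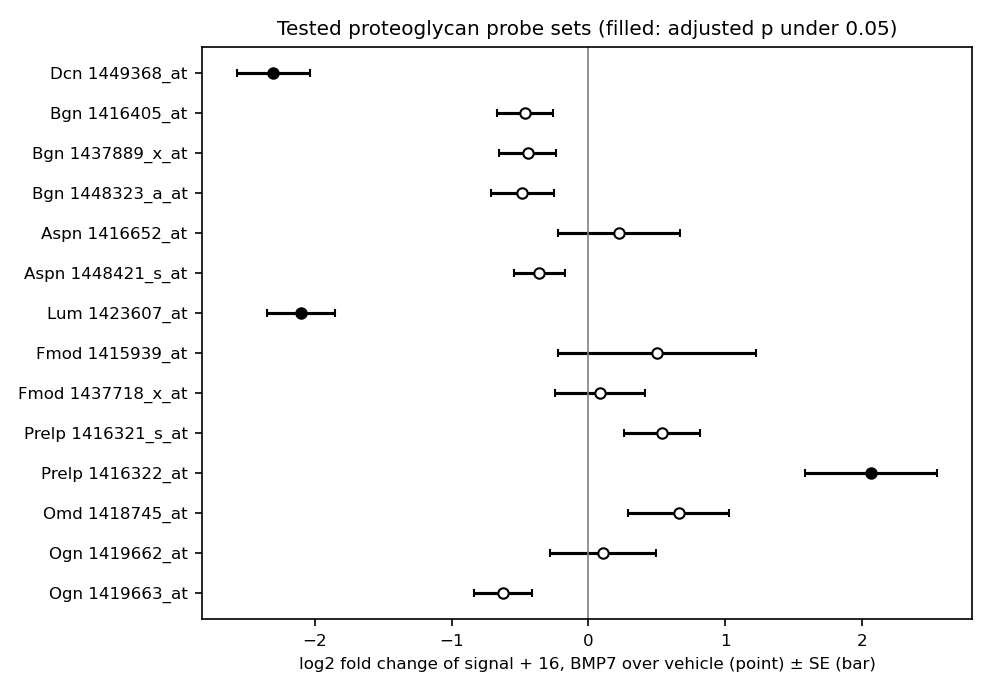
Log2 fold change, BMP7 over vehicle, of log2(signal + 16) with its SE for the 14 tested probe sets, filled where limma's adjusted p is under 0.05. Dcn (-2.31), Lum (-2.10) and Prelp 1416322_at (2.07) are filled, and the other 11 lie between -0.63 and 0.66.

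Dcn encodes decorin, which carries a single glycosaminoglycan chain and coats collagen fibrils. Its only probe set, 1449368_at on chromosome 10, had signals of 402, 718, 665 and 394 on BMP7 arrays 1 to 4, against 1931, 2875, 2607 and 3450 on vehicle arrays 1 to 4. Every BMP7 array lay far below every vehicle array, with BMP7 1 and 4 lowest of all. The means were 545 ± 171 for BMP7 and 2716 ± 631 for vehicle (SD, n = 4 each), a log2 fold change of -2.31 ± 0.26 (SE), or 4.94-fold lower on the log2(signal + 16) scale. The adjusted p in limma was 0.00207. Of the 8374 genes tested, 15 had a lower log2 fold change than Dcn.

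Lum encodes lumican, which also binds collagen fibrils and carries keratan sulphate in the cornea. Its only probe set, 1423607_at, had 315, 408, 604 and 304 on BMP7 arrays 1 to 4, against 1397, 1850, 1797 and 1971 on vehicle arrays 1 to 4. Here too the groups were far apart, BMP7 1 and 4 were lowest of the BMP7 arrays, and vehicle 1 was lowest of the vehicle arrays, as for Dcn. The means were 408 ± 139 for BMP7 and 1754 ± 249 for vehicle (SD, n = 4 each), a log2 fold change of -2.10 ± 0.25 (SE), 4.30-fold lower, with an adjusted p of 0.00255 in limma. Of the 8374 genes, 20 had a lower log2 fold change than Lum.

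Both calls were kept in every alternative limma fit in which the gene was tested, 19 for Dcn and 18 for Lum, since the filter at the 60th percentile removed Lum. Over these the log2 fold change of Dcn ranged from -2.47 to -2.10, with a highest adjusted p of 0.0244, and that of Lum from -2.30 to -1.92, with a highest adjusted p of 0.0386. Without vehicle 3, the array with the high 3′/5′ ratio, the log2 fold change was -2.31 for Dcn and -2.09 for Lum (adjusted p 0.00245 and 0.00283 in limma). With the spiked control signal as a covariate it was -2.47 for Dcn and -2.11 for Lum. The authors' deposited table gives p-values of 0.00448 for Dcn and 3.12e-04 for Lum. After Benjamini-Hochberg adjustment of the deposited p-values none of the member probe sets passed, and 4 of all probe sets did. By those p-values 3 of the 14 tested member probe sets were under 0.05, against a background of 15.7%, the remaining one being Prelp 1416322_at at 0.00296.

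Dcn, Lum, Kera and Epyc follow each other on mouse chromosome 10 with no other protein-coding gene between them in the RefSeq table of GRCm38.p6. The last 2 of this row lay below the filter, so that only their signals are given. Kera, keratocan, had 26.7, 20.7, 31.2 and 22.2 on BMP7 arrays 1 to 4, against 72.1, 34, 158 and 8.5 on vehicle arrays 1 to 4. These groups overlapped, and every array was low. Epyc, epiphycan, had 343, 373, 656 and 188 on BMP7 arrays 1 to 4, against 202, 344, 224 and 182 on vehicle arrays 1 to 4. Its groups overlapped as well, BMP7 3 being the highest array. In the fit with no filter neither passed (adjusted p 0.569 for Kera and 0.505 for Epyc in limma). Of the genes around this row, Btg1, known for restraining proliferation and named here for its place, had a log2 fold change of 0.15 ± 0.16 (SE; adjusted p 0.609 in limma), and Ccer1 lay below the filter.

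Bgn, biglycan, is a close relative of decorin that usually carries more than a single glycosaminoglycan chain. Its 3 probe sets, on chromosome X, gave much the same picture. On 1416405_at the signals were 32481, 34121, 36585 and 38610 on BMP7 arrays 1 to 4, against 45130, 40368, 76101 and 40565 on vehicle arrays 1 to 4. Every BMP7 array lay below every vehicle array, and vehicle 3 stood far above the other vehicle arrays. The means were 35449 ± 2699 for BMP7 and 50541 ± 17181 for vehicle (SD, n = 4 each). The log2 fold change was -0.46 ± 0.21 (SE) on this probe set, and -0.45 and -0.48 on 1437889_x_at and 1448323_a_at, with adjusted p of 0.220, 0.238 and 0.248 in limma. Vehicle 3 alone sets a large part of these values. Without it the vehicle mean of 1416405_at was 42021 ± 2694 (n = 3), and the 3 log2 fold changes lay between -0.25 and -0.23 (adjusted p 0.195 to 0.234). With quantile normalization the 3 values were -0.01, 0.03 and -0.02, and with median centring -0.55, -0.53 and -0.57. With the spiked control signal as a covariate they were 0.02, 0.06 and 0.11. The size and sign of the Bgn values thus depended on the normalization and the covariate.

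Aspn, asporin, is a class I member that binds transforming growth factor beta and lies beside Omd and Ogn on chromosome 13, in that order in the RefSeq table. Its probe set 1448421_s_at had 16640, 11625, 11021 and 12617 on BMP7 arrays 1 to 4, against 15116, 20805, 16062 and 14451 on vehicle arrays 1 to 4. BMP7 1 lay among the vehicle arrays and the other BMP7 arrays below them all. The log2 fold change was -0.36 ± 0.19 (SE; adjusted p 0.288 in limma). Its probe set 1416652_at had 22378, 17929, 14822 and 17687 on BMP7 arrays 1 to 4, against 21189, 27470, 4808 and 20128 on vehicle arrays 1 to 4. Vehicle 3 was the lowest array here, while on 1448421_s_at it lay in the middle of its group. The log2 fold change was 0.22 ± 0.45 (adjusted p 0.8), and -0.33 without vehicle 3 (adjusted p 0.239). Without that array both probe sets had values below 0, and neither passed.

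Ogn, osteoglycin or mimecan, showed the same split between its probe sets. On 1419663_at the signals were 22233, 19357, 15475 and 18709 on BMP7 arrays 1 to 4, against 27330, 43331, 26040 and 22932 on vehicle arrays 1 to 4. The groups did not overlap, vehicle 2 being highest. The means were 18943 ± 2773 for BMP7 and 29908 ± 9137 for vehicle (SD, n = 4 each), with a log2 fold change of -0.63 ± 0.21 (SE; adjusted p 0.123 in limma). On 1419662_at the signals were 21593, 20897, 15551 and 18367 on BMP7 arrays 1 to 4, against 22799, 30676, 6640 and 20559 on vehicle arrays 1 to 4. Vehicle 3 was again lowest on this probe set, and the groups overlapped. Its log2 fold change was 0.11 ± 0.39 (adjusted p 0.896), and -0.36 without vehicle 3 (adjusted p 0.216), while that of 1419663_at without vehicle 3 was -0.68 (adjusted p 0.0789).

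Within an array, the difference in log2(signal + 16) between the 2 tested probe sets of a gene shows this directly. For Aspn (1448421_s_at minus 1416652_at) it was 1.74 on vehicle 3 and between -0.62 and -0.40 on all other arrays. For Ogn (1419663_at minus 1419662_at) it was 1.97 on vehicle 3, between -0.11 and 0.04 on BMP7 arrays, and 0.26, 0.50 and 0.16 on vehicle 1, 2 and 4. With the Actb 3′/5′ ratio as a covariate, the log2 fold changes of 1416652_at and 1419662_at were -0.40 and -0.41 (adjusted p 0.247 and 0.241 in limma). That ratio mainly sets vehicle 3 apart from the other arrays, so this fit is not independent of leaving vehicle 3 out. The place of these probe sets along their transcripts was not analysed here.

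**Figure D3:**
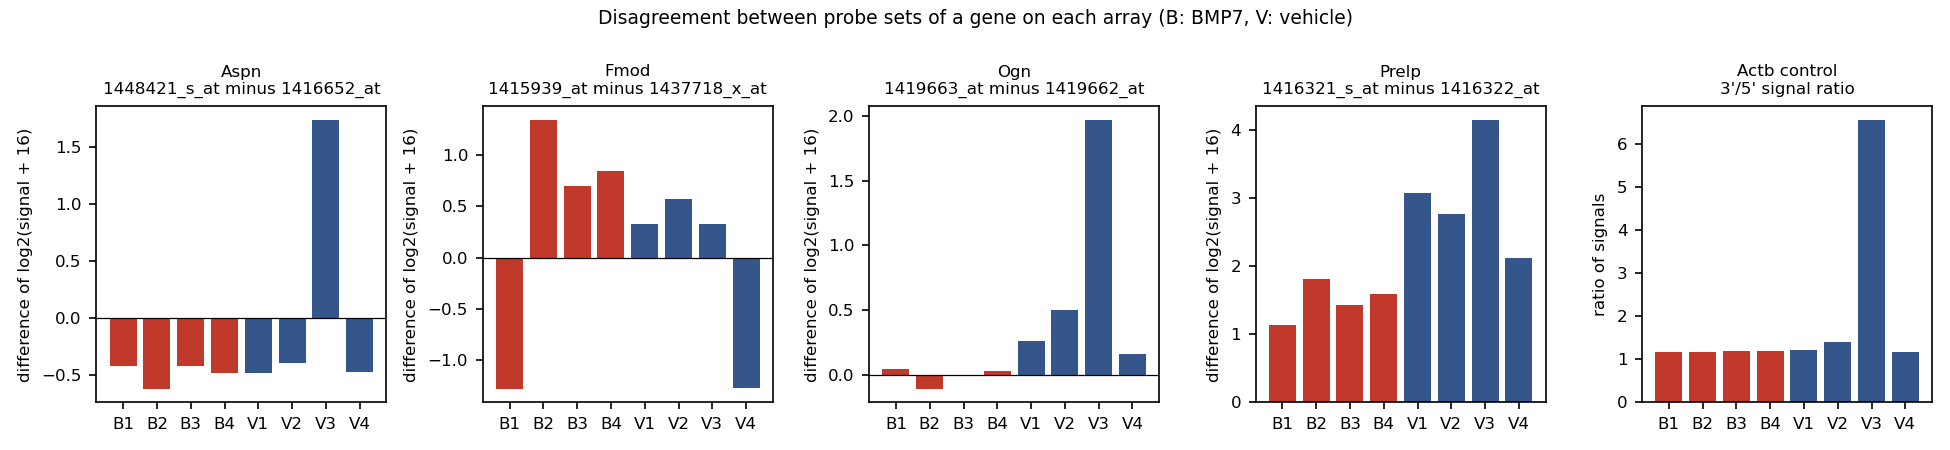
Difference of log2(signal + 16) between the 2 tested probe sets of Aspn, Fmod, Ogn and Prelp on each array (BMP7 arrays B1 to B4 in red, vehicle arrays V1 to V4 in blue), and the Actb control 3′/5′ signal ratio of the same arrays. Vehicle 3 stands out for Aspn (1.74), Ogn (1.97), Prelp (4.13) and the Actb ratio (6.55), while BMP7 1 and vehicle 4 stand out for Fmod (-1.28 each).

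Omd, osteomodulin or osteoadherin, binds bone mineral through an acidic tail. Its probe set 1418745_at had 3278, 3075, 1437 and 2591 on BMP7 arrays 1 to 4, against 2872, 1866, 844 and 1309 on vehicle arrays 1 to 4. The groups overlapped, with array 3 lowest in each. The means were 2595 ± 824 for BMP7 and 1723 ± 873 for vehicle (SD, n = 4 each), a log2 fold change of 0.66 ± 0.37 (SE; adjusted p 0.322 in limma). Without 1 array it ranged from 0.37 (without vehicle 3) to 0.95 (without vehicle 1), and it was 0.15 both with array weights and with the spiked control covariate.

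Prelp, prolargin, is a class II member that binds heparan sulphate and anchors basement membranes to connective tissue. Its probe set 1416322_at, on chromosome 1, had 1718, 1837, 2319 and 1816 on BMP7 arrays 1 to 4, against 275, 775, 162 and 1073 on vehicle arrays 1 to 4. All BMP7 arrays lay above all vehicle arrays, and the vehicle arrays were widely spread. The means were 1922 ± 270 for BMP7 and 571 ± 428 for vehicle (SD, n = 4 each), a log2 fold change of 2.07 ± 0.48 (SE), 4.19-fold higher, with an adjusted p of 0.0453 in limma. The call was lost in 6 of the 8 fits without 1 array, with adjusted p of 0.0851, 0.132, 0.145 and 0.126 without BMP7 1, 2, 3 and 4 and of 0.115 and 0.0510 without vehicle 1 and vehicle 2. It was kept without vehicle 3 (log2 fold change 1.61, adjusted p 0.0347) and without vehicle 4 (2.48, adjusted p 0.0110). It was also lost with no filter, with eBayes without a trend, and with the spiked control signal as a covariate, where the log2 fold change was 0.93 (adjusted p 0.551).

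The other Prelp probe set, 1416321_s_at, had 3788, 6499, 6297 and 5480 on BMP7 arrays 1 to 4, against 2417, 5347, 3113 and 4731 on vehicle arrays 1 to 4. The groups overlapped, and BMP7 1 lay below vehicle 2 and 4. The log2 fold change was 0.54 ± 0.28 (SE), 1.45-fold higher, with an adjusted p of 0.282. The suffix _s_at marks probe sets whose probes are shared between transcripts. The difference in log2(signal + 16), 1416321_s_at minus 1416322_at, was 1.13 to 1.81 on BMP7 arrays and 3.06, 2.76, 4.13 and 2.12 on vehicle 1, 2, 3 and 4. It was thus larger on each vehicle array than on any BMP7 array, and largest on vehicle 3.

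Fmod, fibromodulin, lies next to Prelp on chromosome 1 and is known for binding type I collagen and for tyrosine sulphate near its start. It has 6 probe sets, of which 2 were tested. On 1415939_at the signals were 109, 766, 766 and 664 on BMP7 arrays 1 to 4, against 373, 629, 597 and 68.9 on vehicle arrays 1 to 4. BMP7 1 and vehicle 4 were low and the rest overlapped. The log2 fold change was 0.50 ± 0.72 (SE; adjusted p 0.717 in limma), and -0.17 without vehicle 4. On 1437718_x_at it was 0.08 ± 0.33 (adjusted p 0.906). The log2 difference 1415939_at minus 1437718_x_at was -1.28 on both BMP7 1 and vehicle 4, with 0.32 to 1.34 elsewhere.

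The other 4 Fmod probe sets, all of a type that can cross-hybridise, lay below the filter. Of these, 1438966_x_at, for which the deposited annotation gives no chromosome, had 123, 219, 499 and 164 on BMP7 arrays 1 to 4, against 21.1, 65.7, 71.9 and 65.2 on vehicle arrays 1 to 4. The groups did not overlap, but in the fit with no filter it did not pass (adjusted p 0.102). The other 3 overlapped between groups, with means of 302, 347 and 246 for BMP7 and 170, 322 and 181 for vehicle on 1437324_x_at, 1437685_x_at and 1456084_x_at.

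The RefSeq promoter table of GRCm38.p6 holds 9 windows for 8 of the 10 members. It holds none for Dcn or Lum, so the matches below do not cover the members that fell. Shown are the 250 bases before the start for the genes in the table with a tested probe set on which the groups did not overlap, a choice made with their values known. These are Prelp on chr1:133921402-133921651, minus strand, Bgn on chrX:73483351-73483600, plus strand, and Ogn on chr13:49607765-49608014, plus strand. They are written 5′ to 3′ along the gene, with capitals marking any match on either strand to CAGAC, the core letters of a SMAD-binding element, GGCGCC, a GC-rich SMAD element, TATAAA, the TATA box, or ACAAAG, letters bound by SOX factors.
Prelp: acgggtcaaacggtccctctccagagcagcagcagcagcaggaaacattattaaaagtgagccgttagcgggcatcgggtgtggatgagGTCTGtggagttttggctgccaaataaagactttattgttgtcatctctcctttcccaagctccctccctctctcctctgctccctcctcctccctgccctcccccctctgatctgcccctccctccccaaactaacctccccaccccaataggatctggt
Bgn: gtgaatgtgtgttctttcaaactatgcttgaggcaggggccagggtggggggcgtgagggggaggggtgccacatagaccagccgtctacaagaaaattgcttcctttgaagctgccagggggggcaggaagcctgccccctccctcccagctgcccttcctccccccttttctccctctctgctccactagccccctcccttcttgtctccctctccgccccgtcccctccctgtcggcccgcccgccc
Ogn: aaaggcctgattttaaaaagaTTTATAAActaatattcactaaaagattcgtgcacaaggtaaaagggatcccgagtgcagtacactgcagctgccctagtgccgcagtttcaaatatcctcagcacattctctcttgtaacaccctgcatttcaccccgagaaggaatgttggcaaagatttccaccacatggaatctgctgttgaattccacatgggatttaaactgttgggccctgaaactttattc
CAGAC was found once in Prelp, in 2 matches in Fmod and in none of the other 7 member windows, and 42.2% of the table's 32851 windows of this length hold it. TATAAA was found in Ogn in 2 overlapping matches, 1 on each strand, and in Aspn in 2 separate matches, against 12.4% of all windows. GGCGCC, held by 9.59% of all windows, was in none of the 9, and ACAAAG, held by 16.5%, was in the Kera window and 1 of the 2 Epyc windows. The share of G and C was 64.4% for Bgn, 55.6% for Prelp, 42.0% for Ogn and 30.0% for Aspn, against a median of 52.4%. A match is only a run of letters in this window, and nothing about a factor follows from it.

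Whether members moved unequally was asked for the 8 tested genes, each measured by whichever of its tested probe sets was brightest on average. For each of the 28 pairs the within-array difference in log2(signal + 16) was compared between groups by an exact two-sided permutation test over the 8 arrays, whose smallest possible p is 0.0286. Of the 28 pairs, 13 reached that p, and none was below 0.05 after Benjamini-Hochberg adjustment over the pairs (smallest adjusted p 0.0615). No pair can have a smaller p, so the smallest adjusted p depends only on how many pairs reach it, and 13 were too few. That none passed therefore does not show that members moved equally. These 13 were Dcn against each gene but Lum, Lum against each gene but Dcn, and Ogn against Aspn.

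For Dcn and Bgn the log2 fold changes differed by -1.86. Dcn minus Bgn was -6.17 ± 0.42 on BMP7 arrays and -4.31 ± 0.57 on vehicle arrays (SD, n = 4 each). For Dcn minus Ogn the difference was -5.12 ± 0.60 on BMP7 arrays and -3.44 ± 0.54 on vehicle arrays. For Dcn minus Prelp (1416321_s_at) it was -3.32 ± 0.28 on BMP7 arrays and -0.48 ± 0.29 on vehicle arrays. Each of these pairs had an exact permutation p of 0.0286 (adjusted 0.0615), with all 4 BMP7 arrays below all 4 vehicle arrays. Dcn minus Lum was 0.41 ± 0.28 on BMP7 arrays and 0.61 ± 0.15 on vehicle arrays, and these overlapped (exact permutation p 0.229, adjusted 0.356). The pair Ogn against Aspn used Aspn 1416652_at, the probe set on which vehicle 3 was low.

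Around the proteoglycans, 7 lists of related genes were taken (relatives, collagens and their enzymes, chain enzymes, proteinases, receptors and growth factors). They held 73 tested genes, of which 7 fell and 3 rose, against 1.73% lower and 1.56% higher of the 8374 genes tested. With the spiked control signal as a covariate, which largely followed the groups, Col2a1 and Gpc6 kept their calls. The other 8 of these 10 genes lost theirs (adjusted p 0.0616 to 0.508 in limma). Among 14 collagens, all tested, 1 fell and 1 rose, with a median log2 fold change of -0.23 against 0.0037 over all genes. Col3a1, the type III collagen of loose connective tissue, fell to 31077 ± 2302 in BMP7 cells, against 56732 ± 11727 in vehicle cells (SD, n = 4 each; adjusted p 0.0268 in limma). Col2a1, the fibrillar collagen of cartilage and also a member of the chondrocyte marker list, rose to 29118 ± 8482 in BMP7 cells, against 5750 ± 1854 in vehicle cells (adjusted p 0.00173). The call for Col2a1 was kept without any 1 array, and that for Col3a1 without vehicle 3 or vehicle 4 only (highest adjusted p 0.102). The log2 fold change of Col3a1 was -0.85, and it was -0.41 (adjusted p 0.0282) with quantile normalization and -0.47 (adjusted p 0.19) with that covariate, and its call was also lost with no filter (0.0696) and with eBayes without a trend (0.0524).

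The list of proteinases that cut these proteoglycans also holds Pcolce, which is not a proteinase but enhances one. Of the 8 tested genes in that list, Pcolce among them, 3 fell and none rose, with a median log2 fold change of -0.85. All 3 are secreted metalloproteinases with thrombospondin motifs. Adamts1 fell 3.73-fold to 2369 ± 469 in BMP7 cells, against 9071 ± 2774 in vehicle cells (SD, n = 4 each; adjusted p 0.00342 in limma). Adamts5, an aggrecanase, fell 3.13-fold to 1995 ± 867 in BMP7 cells, against 6198 ± 2592 in vehicle cells (adjusted p 0.0474). The aggrecanase Adamts4, named after its values were seen, fell 3.01-fold (adjusted p 0.0287). Adamts1 kept its call without any 1 array and missed it with the spiked control covariate (adjusted p 0.0616). Adamts4 and Adamts5 kept theirs without vehicle 3 or vehicle 4 only (highest adjusted p 0.0882 for Adamts4 and 0.141 for Adamts5). With the covariate Adamts4 was at -0.96 (adjusted p 0.381), against -1.59 without it, and Adamts5 had an adjusted p of 0.166; Adamts5 was also lost with no filter (0.063) and with eBayes without a trend (0.0588).

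Among 13 tested enzymes of glycosaminoglycan chains 1 fell and 1 rose, with a median log2 fold change of 0.19. Chst1, which adds sulphate to keratan chains, fell 2.72-fold to 590 ± 99.9 in BMP7 cells, against 1750 ± 795 in vehicle cells (SD, n = 4 each; adjusted p 0.0351 in limma). Chst11, which adds sulphate to chondroitin, rose 2.53-fold to 813 ± 186 in BMP7 cells, against 324 ± 131 in vehicle cells (adjusted p 0.0453). Chst1 kept its call without vehicle 1, 3 or 4 (highest adjusted p 0.127 among the fits without 1 array), and Chst11 without vehicle 4 only (highest 0.146). Chst11 also lost its call with the replicate number as a block (adjusted p 0.0619), the Actb covariate (0.0654), no filter (0.0753) and the spiked control covariate, where its log2 fold change was 0.78 (adjusted p 0.508) in place of 1.34. Chst1 lost its call with no filter (0.0502) and with the spiked control covariate (0.401).

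Of 13 other tested proteoglycan genes 1 rose, the glypican gene Gpc6 at 2962 ± 530 in BMP7 cells, against 1465 ± 491 in vehicle cells (SD, n = 4 each; adjusted p 0.0425 in limma), and among the fits without 1 array it kept its call without vehicle 3 only (highest 0.150). Gpc6 also lost its call with quantile normalization, median centring, no filter and eBayes without a trend (adjusted p 0.0523 to 0.0766). Of 16 tested genes in the list of receptors and growth factors related to decorin or biglycan 2 fell and none rose. Pdgfra, a platelet-derived growth factor receptor, fell 2.42-fold to 3726 ± 842 in BMP7 cells, against 9131 ± 2460 in vehicle cells (adjusted p 0.0176). Tgfbr2, the type II receptor of transforming growth factor beta, fell 2.71-fold to 4241 ± 1360 in BMP7 cells, against 11388 ± 2869 in vehicle cells (adjusted p 0.0128). Pdgfra lost its call without vehicle 1 or BMP7 2, 3 or 4 (highest 0.0795), and Tgfbr2 without BMP7 2, 3 or 4 (highest 0.0613). With the spiked control covariate the adjusted p was 0.209 for Pdgfra and 0.065 for Tgfbr2.

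None of the 8 tested genes for cross-linking and assembly of collagen passed limma's test, and their median log2 fold change was 0.44. At an unadjusted p under 0.05 in limma were 4 of these 8 genes and 32 of the 73 tested genes of all lists. Of all 13576 tested probe sets, which count some genes more than once, 2965 were. In the list of other small leucine-rich repeat proteins, 3 of 8 genes had a probe set with 1 gene, and only Tsku, tsukushi, was tested. It had 473 ± 203 in BMP7 cells and 1165 ± 375 in vehicle cells (SD, n = 4 each), with a log2 fold change of -1.33 ± 0.35 (SE; adjusted p 0.0651 in limma). Its groups did not overlap.

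**Figure D4:**
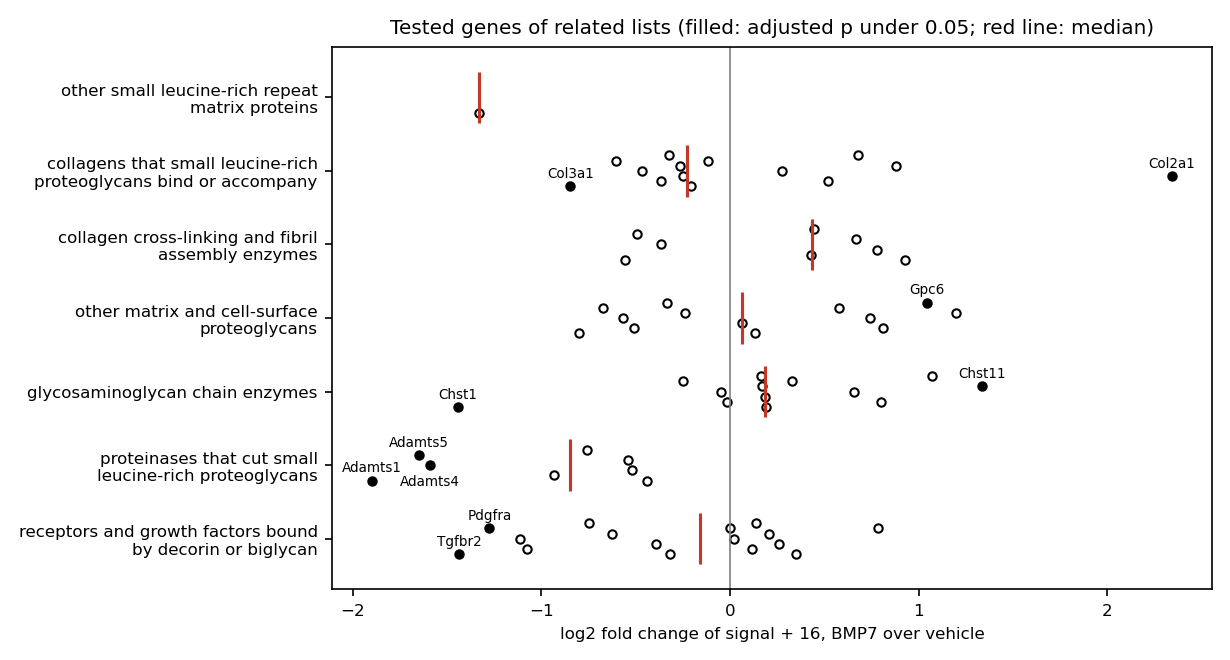
Log2 fold change, BMP7 over vehicle, of log2(signal + 16) for each tested gene of the 7 related lists, filled and named where limma's adjusted p is under 0.05, with the list's median as a red line. Adamts1 (-1.90) lies furthest to the left and Col2a1 (2.34) furthest to the right.

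**Figure D5:**
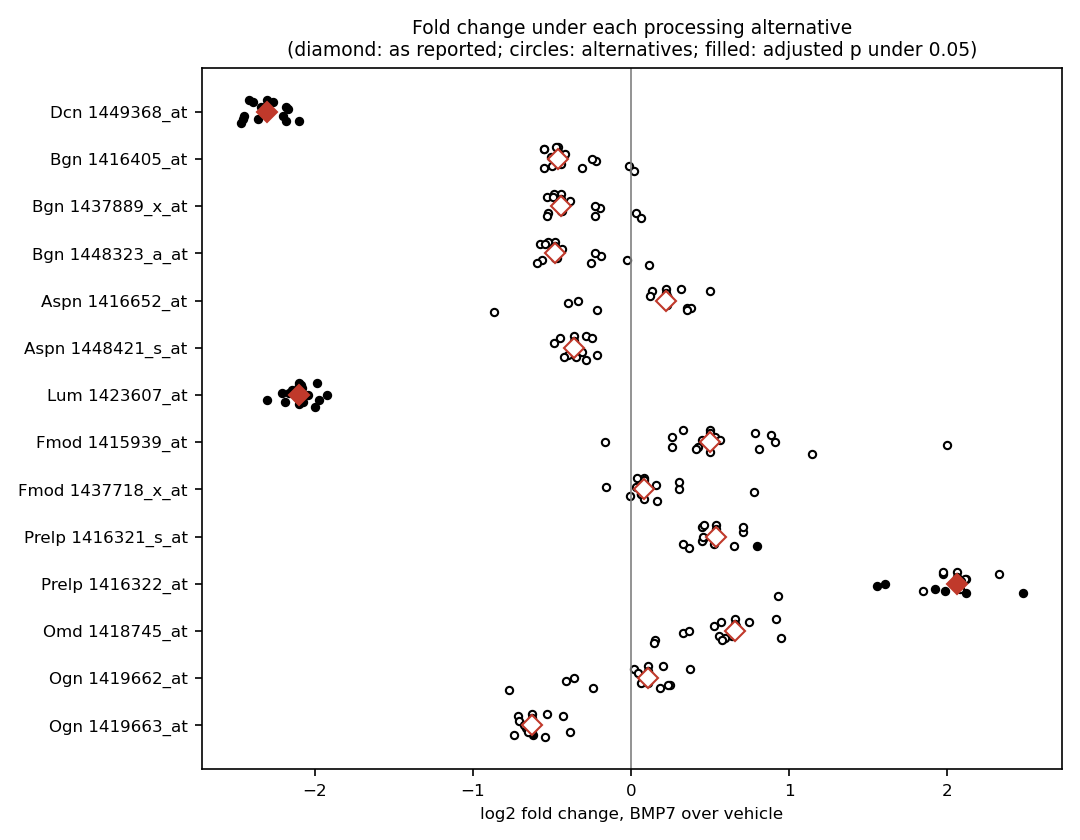
Log2 fold change, BMP7 over vehicle, of the 14 tested member probe sets as reported (diamonds) and under each alternative (circles), filled where the adjusted p is under 0.05. All values of Dcn and Lum are filled and lie between -2.47 and -1.92, those of Prelp 1416322_at lie between 0.93 and 2.48 with 10 of 19 filled, and those of Aspn 1416652_at and Ogn 1419662_at lie on both sides of 0.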

How the data were processed

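Total RNA of C3H10T1/2 cells, 4 BMP7 and 4 vehicle samples, was labelled as biotinylated cRNA and measured on Affymetrix arrays, per the labels. The authors' values are an intensity per probe set on a linear scale, from MAS5 according to the submitters' processing notes (per the labels); version and scaling target were not given there. Each value column is named by its sample, so group and number come from the labels. The group means of these columns equal the deposited mean intensities of the authors' annotated table, and of 70 sets of 4 columns 1 matches the control mean. That table also holds a ratio of the group means and a p-value, deposited per the file headers; recomputation showed an unequal-variance test on linear signals without adjustment. Its 8 further signal columns carry no sample name and were not used.

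Values were analysed as log2(signal + 16), a log2 scale on the authors' scaling, so that folds of low signals are understated. The 64 control probe sets were left out, and probe sets below the 40th percentile of the mean (8.41) were not tested. Groups were compared with limma 3.58.1 in R 4.3.3 (lmFit, eBayes with an intensity trend, two-sided, no covariate), adjusted by Benjamini-Hochberg over 13576 probe sets. The fit was checked on simulated data. A gene of a related list stands for the brightest of its tested probe sets. Permutation tests used scipy 1.17.1. Members were chosen by the gene symbols of the authors' table. For other genes the symbol came from the RefSeq table of GRCm38.p6 where the Entrez identifier matched, and from the authors' table elsewhere. Of 21454 single-gene probe sets 20828 matched. Alternatives were other pseudocounts (1, 64), filters (none, 60th percentile), normalizations, eBayes without a trend, array weights, a replicate block, 2 quality covariates, the authors' p-values, and each array left out. Named genes were all member probe sets and, in each related list, up to 2 genes past the threshold in each direction with the largest change. The members and lists were chosen with earlier results of these data known. Precision is limited by having 4 arrays in each group.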

Additional observations from a re-analysis of the deposited data

Results flagged for a closer look

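In 4 groups 1 array lay apart from the rest, judged by the gap to the nearest array over the group's range on the log2(signal + 16) scale, which passed Dixon's 95% limit for groups of 4. Of the 40 groups examined (20 probe sets in 2 groups) 4 passed it, and chance alone gives about 1 in 20. Vehicle 3 was highest for Bgn on 1437889_x_at (0.863) and 1448323_a_at (0.873), 2 probe sets of the same gene. BMP7 1 was lowest for Fmod on 1415939_at (0.923), at 109 against 664 to 766 on the other BMP7 arrays. Vehicle 1 was lowest for Fmod on 1438966_x_at (0.908), a probe set below the filter, at 21.1 against 65.2 to 71.9 on the other vehicle arrays.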

How the results depend on the processing

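Of the 14 tested member probe sets 3 passed (425 of all probe sets and 10 related genes). With array weights 5 members passed (Ogn 1419663_at and Prelp 1416321_s_at in addition), with 1778 probe sets and 25 related genes in all. With the authors' p-values unadjusted 2135 probe sets and 20 related genes passed, and after Benjamini-Hochberg 4 probe sets, 0 members and 0 related genes. The hybridisation control covariate, which largely followed the groups, left 50 probe sets and 2 related genes, and no filter 5 related genes. Without 1 array at a time 97 to 1079 probe sets, 2 to 3 members (Dcn and Lum in each fit) and 2 to 12 related genes passed: 97 probe sets without BMP7 3, 112 without BMP7 2 or BMP7 4, 159 without vehicle 1, 209 without BMP7 1, 712 without vehicle 3 and 1079 without vehicle 4. The replicate block raised the probe sets to 652 and changed no member's call, but ended that of Chst11 (adjusted p 0.0619). With it the adjusted p in limma was 0.0936 for Omd and 0.00298 for Adamts5. The main fit did not take the replicate numbers as pairs. Deviations of same-numbered arrays correlated at 0.38, 0.04, 0.15 and 0.19, and those of other arrays at -0.22 to 0.11. Each vehicle array correlated best with the BMP7 array of its number, while BMP7 2 correlated best with vehicle 4. These values do not settle whether the numbers mark pairs. The share of calls that were higher was 52.0%, 48.5% with quantile normalization and 46.6% with median centring.

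Directions turned for members that did not pass. Bgn 1437889_x_at was 0.031 with quantile normalization, and with the hybridisation control covariate the Bgn probe sets were 0.019, 0.062 and 0.11. Aspn 1416652_at was -0.21 with array weights, -0.40 with the Actb covariate and -0.87 with the hybridisation covariate, and Ogn 1419662_at -0.24, -0.41 and -0.77. Without 1 array Aspn 1416652_at ranged from -0.33 to 0.50, Ogn 1419662_at from -0.36 to 0.38, Fmod 1415939_at from -0.17 to 1.14 and Fmod 1437718_x_at from -0.16 to 0.17 in the 5 of 8 such fits in which it passed the filter. Fmod 1437718_x_at was -0.0063 with median centring. The cause was not tested. For pairs of members 0 passed at any pseudocount (13 at an unadjusted p under 0.05 in the main setting, too few for the adjusted p to pass). Without 1 array the smallest possible exact permutation p is 0.0571, so no count is given. Dcn minus Bgn then ranged from -2.09 to -1.65.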
